A study of Mus musculus with 8 samples.

Results

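Polycomb repressive complexes keep developmental genes silent in embryonic stem cells, and the 10 genes described here encode core or accessory subunits of those complexes. They were taken by symbol (Ezh2, Ezh1, Eed, Suz12, Jarid2, Mtf2, Rnf2, Ring1, Cbx7 and Kdm2b). All 10 were found among 17723 gene identifiers, and all 10 passed a minimum mean of 1 FPKM (fragments per kilobase of transcript, scaled to sample depth, so that levels can be compared between genes), which left 11268 genes for testing. RNA came from mouse E14TG2a embryonic stem cells of strain 129/Ola, at passages 3 to 6. Wild-type cells (WT) were set against 3 edited populations, E1-KO, E2-KO and E3-KO, whose enhancers had been knocked out with CRISPR/Cas9, with 2 biological replicates in each of the 4 groups. Every group, WT included, was grown without feeder cells on gelatin in medium with serum, leukaemia inhibitory factor, the GSK3 inhibitor CHIR99021 and the MEK inhibitor PD0325901. The labels name neither the position of each enhancer nor whether an edited population is 1 clone, and edited cells with intact enhancers were not analysed here, so enhancer loss and differences of clone or culture cannot be told apart.

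Polycomb repressive complex 2 (PRC2) methylates lysine 27 of histone H3. Its catalytic subunit is EZH2 or the paralog EZH1, which is active only together with EED and SUZ12, and accessory subunits divide the complex into a form that carries a Polycomb-like protein such as MTF2 and a form that carries JARID2. Polycomb repressive complex 1 (PRC1) ubiquitinates histone H2A through RNF2 (RING1B) or its paralog RING1. CBX7 guides canonical PRC1 to methylated lysine 27, and KDM2B brings a variant PRC1 to unmethylated CpG islands. In embryonic stem cells these complexes hold lineage regulators in a repressed state that can be reversed when cells differentiate.

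All 12 markers of embryonic stem cells (Pou5f1, Nanog, Sox2, Zfp42 and others) were present in every sample, and the lowest value of any was 9.34 FPKM (Lin28a in E3-KO replicate 1). Against WT, 2 of the 12 were called higher and 5 lower in E1-KO, 5 higher and 4 lower in E2-KO and 2 higher and 6 lower in E3-KO, among them Klf4, at 159 and 181 FPKM in WT and 68.9 to 87.9 FPKM in the knockouts. The 8 fibroblast markers summed to 3.28 to 3.39 FPKM in WT, 5.34 to 5.60 FPKM in E1-KO, 3.51 to 4.45 FPKM in E2-KO and 4.68 to 5.10 FPKM in E3-KO, mostly Thy1 and Pdgfrb, with Col3a1 at no more than 0.029 FPKM and Dcn at no more than 0.0538 FPKM. The 8 trophectoderm markers summed to 23.9 and 24.2 FPKM in the WT samples, 22.4 and 29.5 FPKM in E1-KO, 18.3 and 18.8 FPKM in E2-KO and 32.5 and 46.5 FPKM in E3-KO, mostly Krt8 and Krt18. Cdx2 was at no more than 0.723 FPKM and Elf5 at no more than 0.167 FPKM, but Eomes was at 2.92 to 7.01 FPKM over all samples. Gata3 was at 1.48 and 1.56 FPKM in WT, 8.86 and 4.84 FPKM in E3-KO and 1.19 to 4.12 FPKM in E1-KO and E2-KO. The 6 primitive endoderm markers present in the files summed to 32.9 and 34.5 FPKM in WT, 8.99 and 10.1 FPKM in E1-KO and 16.9 to 20.0 FPKM in E2-KO and E3-KO, with Sox7 at no more than 0.0949 FPKM. Lama1 was lower in the knockouts (28.2 and 29.4 FPKM in WT, 4.73 to 13.1 FPKM elsewhere). Gata6 (1.04 and 1.15 FPKM in WT) was at 3.72 and 1.76 FPKM in E3-KO and at 0.344 to 0.597 FPKM in E1-KO and E2-KO. Col4a1 (3.23 and 3.42 FPKM in WT) was at 6.23 and 7.31 FPKM in E3-KO, 5.94 and 5.01 FPKM in E2-KO and 4.62 and 3.35 FPKM in E1-KO. The 6 neural markers in the files summed to 6.79 to 8.60 FPKM in WT, 11.5 to 12.7 FPKM in E1-KO, 8.77 to 9.47 FPKM in E2-KO and 12.4 to 12.6 FPKM in E3-KO, mostly Nes, and 7 mesoderm markers to 5.24 to 9.41 FPKM over all samples. The part of these genes in the results below was not tested. In bulk RNA, fewer cells of a type and less RNA per cell cannot be told apart. Sox2, the gene whose enhancers the study addresses, measured 131 and 136 FPKM in WT, 58.0 and 60.3 FPKM in E1-KO, 114 and 97.5 FPKM in E2-KO and 97.7 and 91.0 FPKM in E3-KO. Absolute sequencing depth was unknown, and steps between low values put the relative depth of the samples at 0.785 to 1.01 of that of WT replicate 1.

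The promoters of 5 PRC2 genes are shown first, because the results turn most on Suz12 and Mtf2, which were called lower, and on Eed, Jarid2 and Ezh2, which were called higher in at least 1 knockout. The sequences are those of RefSeq in GRCm38.p6, each from 250 bases before to 50 bases after an annotated start, read 5′ to 3′ on the strand of the gene. Capitals mark the letters GGCGGGA (a core of sites bound by E2F factors) and CCAAT (the CCAAT box) on either strand, and none of the marked stretches overlap. For Jarid2 and Mtf2, which have 2 annotated starts each, the one further upstream is shown.
Ezh2, chr6:47594981-47595280, minus strand: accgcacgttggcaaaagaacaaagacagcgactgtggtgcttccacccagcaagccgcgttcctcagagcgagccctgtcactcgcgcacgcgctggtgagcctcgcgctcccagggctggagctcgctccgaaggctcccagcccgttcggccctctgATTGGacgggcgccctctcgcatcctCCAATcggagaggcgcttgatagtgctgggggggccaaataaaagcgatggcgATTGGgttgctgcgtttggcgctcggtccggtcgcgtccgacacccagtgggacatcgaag
Eed, chr7:89980927-89981226, minus strand: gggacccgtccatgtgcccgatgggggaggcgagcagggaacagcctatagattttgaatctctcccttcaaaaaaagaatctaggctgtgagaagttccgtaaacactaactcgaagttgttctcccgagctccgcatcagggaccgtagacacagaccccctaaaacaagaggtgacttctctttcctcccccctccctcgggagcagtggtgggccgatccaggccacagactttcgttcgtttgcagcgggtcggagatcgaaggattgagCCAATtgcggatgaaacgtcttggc
Suz12, chr11:79992856-79993155, plus strand: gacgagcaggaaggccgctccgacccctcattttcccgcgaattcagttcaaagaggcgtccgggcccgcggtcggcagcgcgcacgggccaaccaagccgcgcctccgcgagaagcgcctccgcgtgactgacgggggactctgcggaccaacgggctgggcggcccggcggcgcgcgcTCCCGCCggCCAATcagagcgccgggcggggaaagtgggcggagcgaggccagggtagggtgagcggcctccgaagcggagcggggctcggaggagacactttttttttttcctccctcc
Jarid2, chr13:44730524-44730823, plus strand: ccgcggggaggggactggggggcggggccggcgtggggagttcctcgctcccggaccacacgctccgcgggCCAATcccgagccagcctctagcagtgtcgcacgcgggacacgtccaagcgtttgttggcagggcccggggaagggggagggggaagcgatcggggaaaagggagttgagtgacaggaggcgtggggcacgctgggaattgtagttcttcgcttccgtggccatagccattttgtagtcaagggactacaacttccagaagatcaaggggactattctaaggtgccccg
Mtf2, chr5:108065424-108065723, plus strand: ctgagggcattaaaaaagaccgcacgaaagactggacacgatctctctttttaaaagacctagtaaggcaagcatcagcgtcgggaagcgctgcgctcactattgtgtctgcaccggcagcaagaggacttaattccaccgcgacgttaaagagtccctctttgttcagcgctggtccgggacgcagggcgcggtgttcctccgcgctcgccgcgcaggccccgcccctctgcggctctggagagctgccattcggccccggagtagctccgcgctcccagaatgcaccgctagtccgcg
These 5 windows held more CpG dinucleotides than the median of 7 over 32851 mouse promoter windows, with 31 in Ezh2, 17 in Eed, 41 in Suz12, 24 in Jarid2 and 30 in Mtf2. Fewer were held by 68.6% of promoters for Eed, 80% for Jarid2, 88.3% for Mtf2, 89.4% for Ezh2 and 96.5% for Suz12. The CCAAT box occurred 3 times in Ezh2 and once each in Eed, Suz12 and Jarid2, and 37.4% of all windows held it. The E2F core occurred in the Suz12 window alone of the 5, where it lay just upstream of the CCAAT box, and 11.3% of all windows held it. Neither CATTGT (the core of sites bound by SOX factors, in 12.6% of all windows) nor CCGGAAG (a core of sites bound by ETS factors, in 8.86%) was found in the 5 windows. Among the members not shown, a window of Kdm2b, which has several annotated starts, held CATTGT. The matches and CpG counts of the 5 windows depend on the start shown. The window at the other start of Mtf2 held 3 CCAAT boxes and 2 CpG dinucleotides, and that at the other start of Jarid2 an E2F core. A match describes the sequence only.

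In WT cells the PRC2 genes stood at the top of the 10. Ezh2 was highest at 132 ± 5.52 FPKM (SD, n = 2, as for all values of this kind), above 95.3% of the tested genes, followed by Mtf2 at 120.2 ± 1.39 FPKM, Jarid2 at 100.2 ± 0.041 FPKM, Eed at 93.3 ± 7.73 FPKM and Suz12 at 81.1 ± 5.65 FPKM. The PRC1 genes Cbx7 (60.9 ± 5.25 FPKM), Kdm2b (48.0 ± 0.213 FPKM) and Rnf2 (41.3 ± 1.22 FPKM) came next. The paralogs of the 2 catalytic subunits were far lower, with Ezh1 at 16.7 ± 0.375 FPKM and Ring1 at 5.85 ± 0.418 FPKM. In this order only Jarid2 and Eed lay closer together than the SD of Eed. All other neighbours were separated by more than the SD of either gene.

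**Figure D1:**
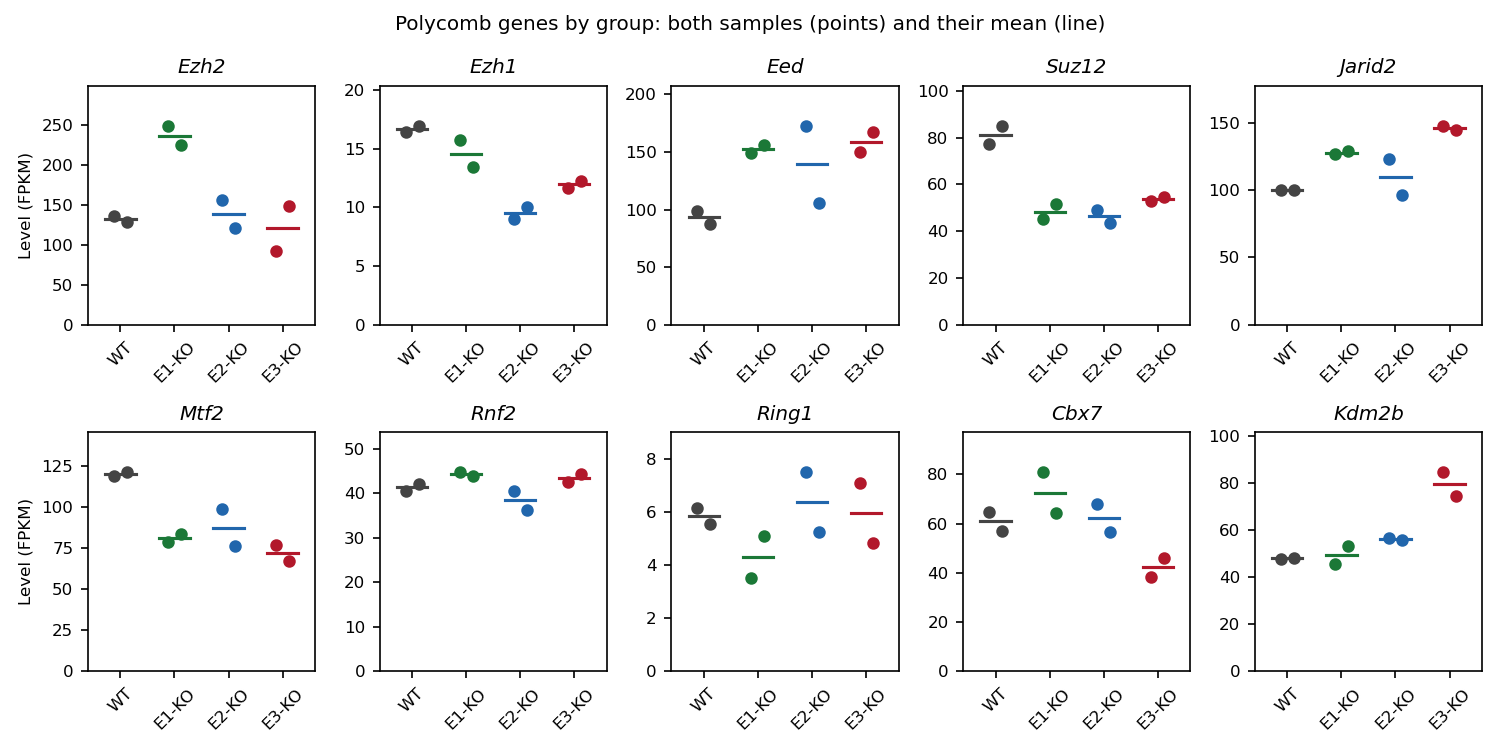
Level of each of the 10 Polycomb genes (vertical axis, FPKM from 0) in both samples of WT, E1-KO, E2-KO and E3-KO, with a line at the mean. Suz12 and Mtf2 lie below WT in all 6 knockout samples, Eed lies above it in all 6, Ezh2 stands out in E1-KO, and Kdm2b is highest and Cbx7 lowest in E3-KO.

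Against WT, 5 of the 10 genes were called in the E1-KO cells, 3 in the E2-KO cells and 7 in the E3-KO cells by limma-trend, with the Benjamini-Hochberg adjusted p below 0.05. Over all tested genes the shares called were 38% (E1-KO), 36.1% (E2-KO) and 44.7% (E3-KO), so the count of members in E2-KO was close to the background, and with 10 genes the counts in the other groups say little about the group as a whole. The directions were mixed. In E1-KO 3 members were higher (15% of all tested genes) and 2 lower (23%). In E2-KO 0 were higher (14.2%) and 3 lower (22%), and in E3-KO 3 were higher (13.9%) and 4 lower (30.8%). Counting a member called in at least 1 knockout, 8 of 10 qualified, all but Rnf2 and Ring1, against 61.7% of the tested genes. Samples did not overlap those of WT for 8 members in E1-KO (77% of tested genes), 5 in E2-KO (71.8%) and 8 in E3-KO (74.2%). With scaling by median ratios, E2-KO had 2 higher and 3 lower and E3-KO 3 higher and 2 lower. Fold changes are differences of log2(FPKM + 1). Their median over all tested genes was -0.06 (E1-KO), -0.08 (E2-KO) and -0.15 (E3-KO), and over the 10 members 0.07, 0.04 and -0.08. Taken relative to this shift, the E3-KO changes of called members were -0.43 for Suz12, -0.59 for Mtf2, -0.30 for Ezh1, -0.37 for Cbx7, 0.91 for Eed, 0.69 for Jarid2 and 0.86 for Kdm2b. Because the 3 comparisons share the WT samples, a like change in all 3 is not 3 independent observations. Suz12 and Mtf2 were called lower in all 3 knockouts, as were 13% of the tested genes, and no member was called higher in all 3, against 6.56% of the tested genes.

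**Figure D2:**
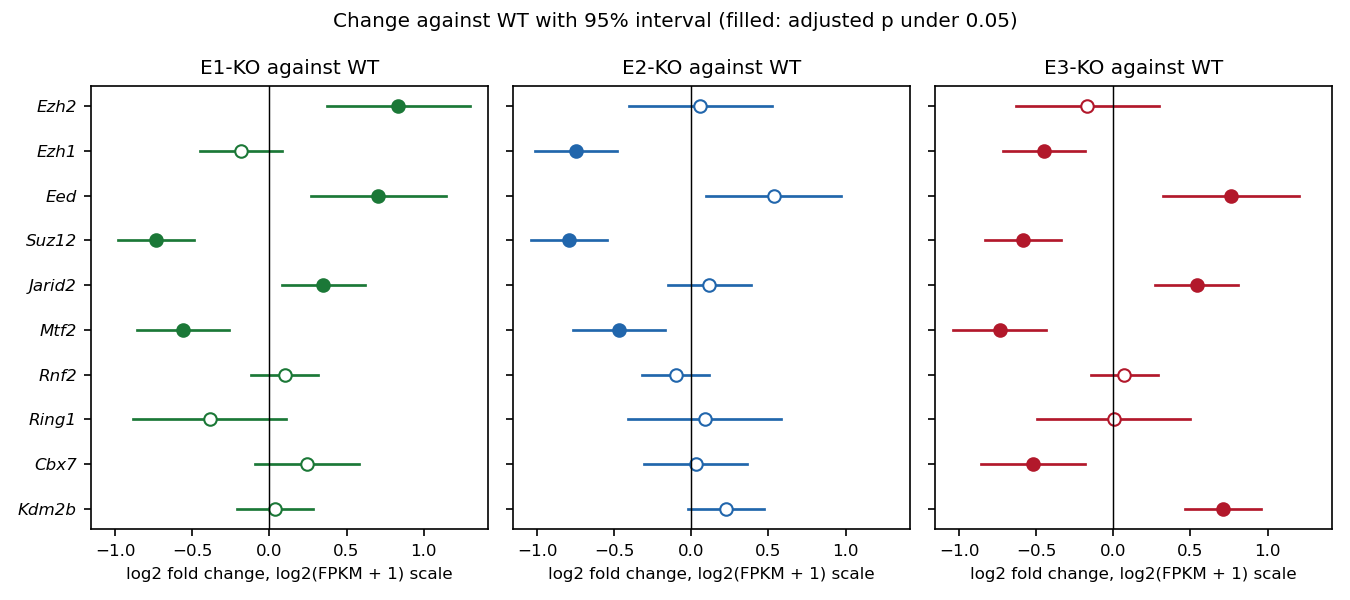
Change of each gene against WT on the log2(FPKM + 1) scale (horizontal axis) in E1-KO, E2-KO and E3-KO, with unadjusted 95% intervals from the limma-trend fit and filled points at an adjusted p under 0.05. Suz12 and Mtf2 are filled to the left of 0 in each panel, while Eed is filled to the right in E1-KO and E3-KO and open in E2-KO.

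Suz12 (ENSMUSG00000017548, chr11:79993106-80034123, plus strand) encodes the zinc finger scaffold that holds PRC2 together. Its level was 77.1 and 85.0 FPKM in WT, 45.1 and 51.4 FPKM in E1-KO, 49.2 and 43.7 FPKM in E2-KO and 52.8 and 54.5 FPKM in E3-KO. All 6 knockout samples lay below both WT samples, as they did for Mtf2 and Ezh1 and for 28.5% of the tested genes. Gene positions are those of GRCm38. Suz12 differed from WT by -0.74 log2 units in E1-KO (standard error 0.109, limma-trend adjusted p = 0.0013), -0.79 in E2-KO (adjusted p = 0.00102) and -0.58 in E3-KO (adjusted p = 0.00281). Suz12 was called in each of the 3 comparisons under all 10 other settings and with any 1 sample left out. No difference between knockouts passed the threshold, with the 95% interval of the largest gap, E3-KO minus E2-KO, from -0.04 to 0.45.

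Eed (ENSMUSG00000030619, chr7:89954654-89980983, minus strand) encodes the subunit that binds methylated lysine 27 and stimulates the enzyme. It measured 98.8 and 87.9 FPKM in WT and rose to 149 and 156 FPKM in E1-KO and to 150.5 and 168 FPKM in E3-KO. In E2-KO the samples were far apart, at 173 and 106 FPKM. Eed was therefore above WT in all 6 knockout samples, as in 15.3% of the tested genes. Eed differed from WT by 0.71 log2 units in E1-KO (standard error 0.194, limma-trend adjusted p = 0.0197), 0.76 in E3-KO (adjusted p = 0.0118) and 0.53 in E2-KO, short of the threshold (adjusted p = 0.058) except with median-ratio scaling (0.0347). This rested on which E2-KO sample was used, since the change was 0.88 without E2-KO replicate 2 and 0.18 without E2-KO replicate 1. The call in E1-KO was lost without any 1 of its own or the WT samples (adjusted p = 0.0582 to 0.121) and that in E3-KO without E3-KO replicate 2 or WT replicate 2 (0.0639 to 0.0812), and with all genes above 0 tested the E1-KO value was 0.0555.

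Eed and Suz12 act in a single core, and their ratio within a sample does not depend on how samples are scaled. Eed over Suz12 was 1.28 and 1.03 for WT, 3.31 and 3.03 in the E1-KO samples, 3.51 and 2.43 in those of E2-KO and 2.85 and 3.08 in those of E3-KO. The lowest knockout value was 2.43 and the highest WT value 1.28, so the knockouts did not overlap WT. This separation follows from Eed lying above and Suz12 below WT in every knockout sample, and is not a further result. The mean ratio was 2.74 times that of WT in E1-KO, 2.56 times in E2-KO and 2.56 times in E3-KO.

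Ezh2 (ENSMUSG00000029687), the main catalytic subunit, measured 136 and 128 FPKM in WT, 249 and 225 FPKM in E1-KO, 156 and 121 FPKM in E2-KO and 92.5 and 149 FPKM in E3-KO. Both E1-KO samples stood above every other sample, whereas E2-KO and E3-KO overlapped WT. The log2 fold change in E1-KO was 0.84 (standard error 0.206, limma-trend adjusted p = 0.0125), a mean level 1.79 times that of WT. It was called under all 10 other settings but lost without E1-KO replicate 1, WT replicate 1 or WT replicate 2 (adjusted p = 0.0526 to 0.0824). In E2-KO the change was 0.06 (95% interval -0.41 to 0.52) and in E3-KO -0.17 (95% interval -0.63 to 0.30). The E3-KO samples were unlike each other, and the change there was -0.51 without E3-KO replicate 2 and 0.17 without E3-KO replicate 1. Compared directly, E3-KO was below E1-KO (log2 difference -1.0045, limma-trend adjusted p = 0.00786), a call lost without E1-KO replicate 1 (0.0614). E2-KO was also below E1-KO (-0.78), but this did not pass (adjusted p = 0.104) except without E3-KO replicate 1 or 2, which took it to 0.0345 and 0.0344.

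Ezh2 lies on chromosome 6 (47530139 to 47595341 in GRCm38, minus strand), whose genes were on the whole lower in the E3-KO cells. The median log2 fold change of its 536 tested genes was -0.62 in E3-KO, against -0.05 in E1-KO and -0.07 in E2-KO. The E3-KO change of Ezh2, -0.17, was 0.45 above that median and above 79.5% of the chromosome's genes. With E3-KO set against E1-KO, the median of the chromosome was -0.59, and Ezh2 differed from it by -0.42. None of the other 9 members lies on chromosome 6.

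**Figure D3:**
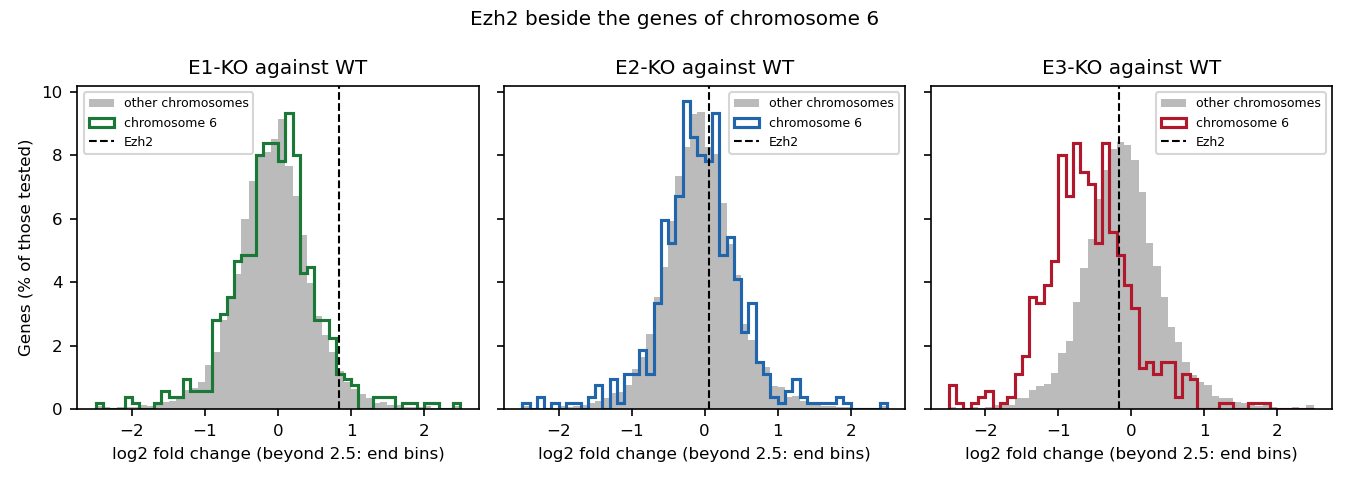
Distribution of log2 fold changes against WT (horizontal axis) for tested genes of chromosome 6 (outline) and of all other chromosomes (grey), as a percentage of each set, with Ezh2 as a dashed line. In E3-KO the 536 genes of chromosome 6 are shifted to the left (median -0.62) and Ezh2 stands to the right of most of them, while in E1-KO Ezh2 lies in the right tail.

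Ezh1 (ENSMUSG00000006920, chr11:101191115-101226463, minus strand), the less active paralog that persists in non-dividing cells, measured 16.4 and 16.9 FPKM in WT, 15.7 and 13.4 FPKM in E1-KO, 9.04 and 10.04 FPKM in E2-KO and 11.7 and 12.3 FPKM in E3-KO. All 6 knockout samples were below WT. It fell by 0.75 on the log2 scale in E2-KO (standard error 0.117, limma-trend adjusted p = 0.00188), which held under all 10 other settings and with any 1 sample left out. In E3-KO it fell by 0.45 (adjusted p = 0.0133), a call that was lost with quantile normalization or median-ratio scaling (adjusted p = 0.0842 to 0.103) and without either WT sample (0.0589 to 0.0843). The change in E1-KO was -0.19 (95% interval -0.45 to 0.08). Ezh2 over Ezh1 was 8.28 and 7.56 for WT, 15.8 and 16.7 (the E1-KO samples), 17.3 and 12.04 (the E2-KO samples) and 7.93 and 12.1 (the E3-KO samples). The ratio was thus above WT in both samples of E1-KO and E2-KO, of which the former had the called rise of Ezh2 and the latter the called fall of Ezh1, and overlapped WT in E3-KO.

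The accessory subunits moved apart as well. Mtf2 (ENSMUSG00000029267, chr5:108065674-108109004, plus strand), a Polycomb-like protein that binds CpG islands, fell from 119 and 121 FPKM in WT to 78.7 and 83.8 FPKM in E1-KO, 98.8 and 76.0 FPKM in E2-KO and 76.8 and 66.9 FPKM in E3-KO. Mtf2 differed from WT in these by -0.56 (limma-trend adjusted p = 0.0107), -0.47 (adjusted p = 0.0236) and -0.74 (standard error 0.132, adjusted p = 0.0024). These calls held under all 10 other settings. The E3-KO call also held with any 1 sample left out, whereas that in E1-KO was lost without E1-KO replicate 1 or either WT sample (adjusted p = 0.0555 to 0.0778) and that in E2-KO without E2-KO replicate 2 or either WT sample (0.0964 to 0.116).

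Jarid2 (ENSMUSG00000038518, chr13:44729474-44921643, plus strand), a DNA-binding subunit that belongs to the jumonji family, was very even in WT (100.3 and 100.2 FPKM). It measured 127 and 129 FPKM in E1-KO, 123 and 96.1 FPKM in E2-KO and 148 and 145 FPKM in E3-KO. The rise in E3-KO was 0.54 (standard error 0.119, limma-trend adjusted p = 0.00618) and held under every setting and with any 1 sample left out. The rise of 0.35 in E1-KO was near the threshold (adjusted p = 0.045) and was lost in 4 of 10 other settings, the replicate block and quantile normalization among them (adjusted p = 0.0524 to 0.0722), and without any 1 of the E1-KO or WT samples (0.153 to 0.17). In E2-KO the change was 0.12 (limma-trend adjusted p = 0.475). It was 0.29 without E2-KO replicate 2 and -0.06 without E2-KO replicate 1.

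Jarid2 over Mtf2 within a sample was 0.841 and 0.827 for WT, 1.61 and 1.54 in the E1-KO samples, 1.24 and 1.26 in those of E2-KO and 1.92 and 2.17 in those of E3-KO. All 6 knockout samples lay above WT and the 3 knockouts did not overlap each other, in the order E2-KO, E1-KO, E3-KO. The mean ratio was 1.89 times that of WT in E1-KO, 1.503 times in E2-KO and 2.45 times in E3-KO. These ratios were chosen after the levels were known and carry no test.

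**Figure D4:**
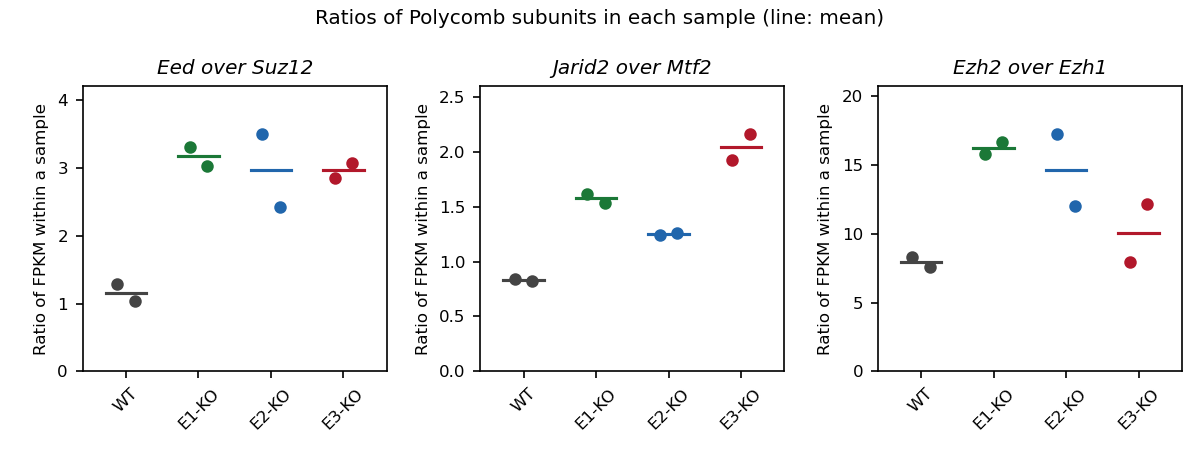
Ratios of FPKM within each sample (vertical axes from 0) for Eed over Suz12, Jarid2 over Mtf2 and Ezh2 over Ezh1, with both samples of each group as points and their mean as a line. All 6 knockout samples lie above both WT samples in the first and second panels, and E3-KO overlaps WT in the third.

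The catalytic subunits of PRC1 did not change detectably. Rnf2 (ENSMUSG00000026484, chr1:151458004-151500955, minus strand) measured 40.4 and 42.1 FPKM in WT, 44.7 and 43.8 FPKM in E1-KO, 40.6 and 36.3 FPKM in E2-KO and 42.5 and 44.3 FPKM in E3-KO. It had the smallest standard error of the 10 (0.0954), and its intervals against WT were narrow, -0.12 to 0.31 in E1-KO, -0.32 to 0.11 in E2-KO and -0.14 to 0.29 in E3-KO. Ring1 (ENSMUSG00000024325, chr17:34020792-34024680, minus strand) was low and scattered, with 6.15 and 5.55 FPKM in WT, 3.50 and 5.09 FPKM in E1-KO, 7.49 and 5.22 FPKM in E2-KO and 7.09 and 4.81 FPKM in E3-KO. The groups overlapped apart from E1-KO, where the change of -0.39 missed the threshold (limma-trend adjusted p = 0.194, 95% interval -0.88 to 0.11). None of the 6 comparisons called either gene, under any setting or with any sample left out.

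Cbx7 and Kdm2b set E3-KO apart. Cbx7 (ENSMUSG00000053411, chr15:79915807-79971119, minus strand), the main chromobox protein of PRC1 in embryonic stem cells, measured 64.6 and 57.2 FPKM in WT, 80.9 and 64.3 FPKM in E1-KO, 67.9 and 56.6 FPKM in E2-KO and 38.4 and 46.1 FPKM in E3-KO. Only E3-KO lay wholly below WT, and it fell by 0.52 log2 units there (standard error 0.148, limma-trend adjusted p = 0.0196). Median-ratio scaling took this to -0.35 (adjusted p = 0.1), and it was also lost without E3-KO replicate 1 or either WT sample (0.0516 to 0.123). Directly compared, E3-KO was below E1-KO by 0.76 (log2 difference -0.76, adjusted p = 0.00626, and 0.0612 without E1-KO replicate 1). It was below E2-KO by 0.55 (log2 difference -0.55, adjusted p = 0.0386), which 6 of 10 other settings did not call (adjusted p = 0.0555 to 0.0864), nor 5 of 8 fits with 1 sample left out, namely without E2-KO replicate 1 or any 1 of the E3-KO or WT samples (0.0508 to 0.161).

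Kdm2b (ENSMUSG00000029475, chr5:122870665-122989823, minus strand), the CpG-binding subunit of variant PRC1, measured 47.8 and 48.1 FPKM in WT, 45.5 and 53.3 FPKM in E1-KO, 56.6 and 55.9 FPKM in E2-KO and 84.4 and 74.3 FPKM in E3-KO. Both E3-KO samples stood above all others. Kdm2b rose by 0.71 log2 units in E3-KO (standard error 0.108, limma-trend adjusted p = 0.00113), to 1.65 times the WT mean, and this held under all 10 other settings and with any 1 sample left out. It exceeded that in E1-KO by 0.67 (adjusted p = 0.00263) under all of these too, and that in E2-KO by 0.49 (adjusted p = 0.0186), which was lost when the 4 samples of the pair were fitted alone (0.0825) and without E2-KO replicate 1 or E3-KO replicate 1 (0.0555 to 0.065). Kdm2b over Cbx7 was 0.740 and 0.842 in WT and 2.197 and 1.61 in E3-KO, whereas E1-KO and E2-KO overlapped WT. Summing the 3 rows that carry the identifier of Kdm2b left its calls as they were.

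With the knockouts set against each other, 3 of the 10 genes were called between E3-KO and E1-KO, against 25.8% of all tested genes. Kdm2b was higher in E3-KO (9.41% of tested genes) and Ezh2 and Cbx7 were lower (16.4%). Between E3-KO and E2-KO 3 were called, against 15.6%, with Jarid2 and Kdm2b higher (5.48%) and Cbx7 lower (10.1%). Samples did not overlap for 7 members between E3-KO and E1-KO (65.7% of tested genes), 6 between E3-KO and E2-KO (54.4%) and 6 between E2-KO and E1-KO (50.9%). The difference in Jarid2 was 0.43 (limma-trend adjusted p = 0.0421), and it was lost in 4 of 10 other settings (0.0524 to 0.165) and in 7 of 8 fits with 1 sample left out (all but the fit without E2-KO replicate 1, 0.0775 to 0.111). Between E2-KO and E1-KO limma-trend called 0 of the 10, against 0.834% of the tested genes (0.488% higher and 0.346% lower), while 2 members had an unadjusted p under 0.05. Without E3-KO replicate 1 or 2, Ezh2 was called there.

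How the members ran together over the 8 samples is described by Pearson correlations of log2(FPKM + 1), which share the 4 groups and carry no test. Eed and Jarid2 ran together (r = 0.87), as did Suz12 and Mtf2 (r = 0.79) and Ezh2 and Cbx7 (r = 0.78). Eed ran against Suz12 (r = -0.66), Jarid2 against Mtf2 (r = -0.64) and Cbx7 against Kdm2b (r = -0.89). Among all tested genes outside the 10, the most like Ezh2 over the 8 samples were Supt16 (r = 0.99), a subunit of the histone chaperone FACT, and Dlgap5 (r = 0.98), a mitotic spindle protein. For Suz12 they were Aasdh and Mgea5 (r = 0.99 each), for Eed Rab3ip and Madd (0.98 each), for Jarid2 Coa7 and Zfp78 (0.97 each) and for Mtf2 Rps20 and Tmem256 (0.99 each). For Ezh1 they were Gpld1 and Katnal1 (0.98 each), for Cbx7 Klf12 and Fam169a (0.97 each) and for Kdm2b Boc and Mfap3l (0.99 each).

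Of the other PRC2 genes, Lcorl was called lower in all 3 knockouts, Aebp2 lower in E1-KO and E3-KO, and Epop higher in E2-KO. Of 9 tested, 0 rose and 5 fell in E1-KO, 1 rose and 1 fell in E2-KO, and 1 rose and 3 fell in E3-KO. The shares called were 55.6%, 22.2% and 44.4%, against 38%, 36.1% and 44.7% of all tested genes, with medians of -0.36, -0.17 and -0.20 against -0.06, -0.08 and -0.15 over all genes. Aebp2, which accompanies JARID2 and lies on chromosome 6, fell from 132 and 136 FPKM in WT to 84.9 and 92.7 FPKM in E1-KO (log2 fold change -0.59, limma-trend adjusted p = 0.00168) and to 96.4 and 91.6 FPKM in E3-KO (-0.51, adjusted p = 0.0025), near the chromosome's median of -0.62. In E2-KO the change of Aebp2 was -0.25 and was not called (limma-trend adjusted p = 0.0653). Lcorl, whose locus gives rise to a PRC2 cofactor, fell in all 3 (-0.88, -0.97 and -0.99). Epop, an elongin-binding cofactor of the Polycomb-like form, rose in E2-KO from 60.0 and 67.8 FPKM in WT to 151 and 155 FPKM (1.25, adjusted p = 0.00755). Its E3-KO samples were apart at 145 and 68.5 FPKM, and it was not called there (0.64, adjusted p = 0.0841). In E1-KO Epop measured 49.7 and 53.7 FPKM and was not called either (-0.30, adjusted p = 0.41). Set against E1-KO, Epop was higher in E2-KO (1.55, limma-trend adjusted p = 0.0439). AU022751, which encodes the PRC2 inhibitor EZHIP, fell in E1-KO (-0.91, adjusted p = 0.0092) from 5.31 and 5.11 FPKM to 2.27 and 2.35 FPKM. In E3-KO, Phf19 fell at a level near 1 FPKM (-0.80), and the rise of Lcor (0.27, adjusted p = 0.0486) was lost in 3 of 10 other settings, the replicate block among them (up to 0.0819). With 1 sample left out, AU022751 was lost without E1-KO replicate 1 or either WT sample (0.0507 to 0.0546), Epop and Phf19 without WT replicate 1 (0.0513 and 0.0766) and Lcor in 5 of 8 fits, those without either E1-KO sample, E3-KO replicate 2 or either WT sample (0.0816 to 0.222).

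Of 28 other PRC1 genes tested, 5 rose and 6 fell in E1-KO, 4 rose and 3 fell in E2-KO and 4 rose and 7 fell in E3-KO. The shares called were 39.3%, 25% and 39.3%, against 38%, 36.1% and 44.7% of all tested genes. Their medians were -0.12, -0.07 and -0.01, against -0.06, -0.08 and -0.15. Scml2, an X-linked sex comb protein, fell from 14.4 and 17.6 FPKM to 3.06 and 3.87 FPKM in E1-KO and 3.36 and 3.22 FPKM in E2-KO (-1.93 and -1.98), and less in E3-KO (-0.89), which was above E1-KO by 1.04 (adjusted p = 0.00659). Phc1, a polyhomeotic subunit on chromosome 6, rose in E1-KO (0.72) and E2-KO (0.62) from 120.5 and 121 FPKM to 204 and 195 FPKM and to 181 and 191 FPKM. In E3-KO it measured 90.5 and 108 FPKM (-0.29, limma-trend adjusted p = 0.0553), a change 0.33 above the median of its chromosome. Pcgf1, the partner of KDM2B in variant PRC1 and also on chromosome 6, fell in E3-KO from 27.8 and 25.8 FPKM to 10.6 and 8.25 FPKM (-1.42, adjusted p = 0.00031), which was 0.81 below the median of its chromosome. Mga fell in all 3 knockouts (-0.41, -0.64 and -0.64), Wdr5, which also serves activating methyltransferases, in E1-KO (-0.73) and E3-KO (-0.58), and Scmh1 in E1-KO (-0.58). Bmi1 rose in E2-KO (0.62, lost with all genes above 0, adjusted p = 0.0775) and E3-KO (0.77), and Cbx8 in E2-KO (0.76, lost with all genes above 0, adjusted p = 0.0797). The rises of Bcorl1 in E1-KO (0.76) and E3-KO (0.72) and the fall of Scmh1 in E2-KO (-0.34) passed but were lost in 1, 3 and 6 of 10 other settings (adjusted p up to 0.0943, 0.0957 and 0.221), those for Scmh1 including the replicate block. With 1 sample left out, Scml2 in E3-KO was lost without WT replicate 2 (0.0649), Cbx8 without E2-KO replicate 2 or either WT sample (0.0896 to 0.17) and Bmi1 in E3-KO without E3-KO replicate 2 or WT replicate 2 (0.0679 and 0.0882). Bmi1 in E2-KO was lost without E2-KO replicate 1 or WT replicate 2 (0.162 and 0.208), and Mga in E1-KO without E1-KO replicate 2 or either WT sample (0.0614 to 0.109). Bcorl1 was lost in E1-KO without any 1 of the E1-KO or WT samples (0.0716 to 0.194) and in E3-KO in all fits but that without E3-KO replicate 1 (0.0512 to 0.233), and Scmh1 in E2-KO in all but those without an E3-KO sample (0.058 to 0.206).

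A list of enzymes that oppose Polycomb and of other subunits of their complexes, such as Men1, Dpy30 and Ash2l, had 14 tested genes. Of these, 1 rose in E1-KO (Men1, 0.67), 1 rose and 1 fell in E2-KO (Dpy30, 0.55, and Ash2l, -0.31), and 3 rose and 1 fell in E3-KO. The shares called were 7.14%, 14.3% and 28.6%, against 38%, 36.1% and 44.7% of all tested genes, and the medians 0.15, 0.12 and 0.15, against -0.06, -0.08 and -0.15. Kdm6b, a demethylase of lysine 27, rose in E3-KO from 15.7 and 17.1 FPKM in WT to 25.0 and 27.5 FPKM (0.65, limma-trend adjusted p = 0.0018) and exceeded E1-KO and E2-KO there (adjusted p = 0.0301 and 0.00671). The call of Kdm6b held under all 10 other settings. Those of Men1, Dpy30, Ash2l, Usp16 (0.73) and Kmt2a (0.52) were each lost in 1 or more, with adjusted p up to 0.0614 for Men1, 0.0585 for Dpy30, 0.0753 and 0.1 for Ash2l in E2-KO and E3-KO, 0.111 for Usp16 and 0.0891 for Kmt2a. The replicate block was among the settings that lost Usp16. Each was also lost with 1 sample left out: Men1 without either E1-KO sample or WT replicate 2 (0.0571 to 0.16), Dpy30 without E2-KO replicate 1 or either WT sample (0.0547 to 0.155), and Ash2l without either WT sample in E3-KO (0.0624 and 0.0764) and also without E2-KO replicate 2 or either E1-KO sample in E2-KO (0.0578 to 0.146). Usp16 was lost without either E1-KO sample, E3-KO replicate 2 or either WT sample (0.0621 to 0.247), and Kmt2a in all fits but that without E3-KO replicate 1 (0.0508 to 0.248).

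Most of the listed Polycomb targets were at low levels. Of 73 listed regulators of development in the files, 53 had a mean under 1 FPKM and were not tested, and 28 of the 73 were above 1 FPKM in any sample. Of the 20 tested, 4 rose and 5 fell in E1-KO, 5 rose and 4 fell in E2-KO and 5 rose and 4 fell in E3-KO, a share of 45% each against 38%, 36.1% and 44.7% of all genes. Since genes high in 1 group could pass the filter through that group, these counts are a description. Meis2, a homeobox gene, rose from 10.05 and 12.7 FPKM in WT to 27.5 and 18.6 FPKM in E2-KO (0.94) and 38.8 and 37.1 FPKM in E3-KO (1.66, limma-trend adjusted p = 0.000232). Msx2 rose in all 3 knockouts (0.74, 0.74 and 0.99), from 0.316 and 0.387 FPKM in WT to between 1.03 and 1.88 FPKM. It thus passed the filter only through the knockouts and stayed near it. Gata3 rose in E3-KO (1.59), from 1.48 and 1.56 FPKM to 8.86 and 4.84 FPKM. Pax6, Bmp4 and Hoxc10 rose in E1-KO (1.24, 0.87 and 0.86), Hoxc10 fell in E3-KO (-0.79), and in E2-KO the rise of Pax6 (0.66) was lost in 4 settings, the replicate block among them (adjusted p up to 0.0914). Gsc fell in all 3 (-2.04, -1.30 and -1.51), as did Slit2 (-1.63, -1.27 and -0.88) and Cdkn2a (-0.59, -0.66 and -1.03), and Gata2 fell in E1-KO and E2-KO (-1.25 and -1.06). Several of these falls ended near the filter. Gsc went from 6.86 and 7.39 FPKM in WT to between 0.622 and 2.58 FPKM, and Slit2 from 4.98 and 3.71 FPKM to between 0.492 and 2.05 FPKM. Gata2 went from 3.46 and 3.79 FPKM to between 0.822 and 1.29 FPKM in E1-KO and E2-KO. It lies on chromosome 6, and its change of -0.17 in E3-KO was 0.44 above the median of that chromosome. With 1 sample left out, Bmp4 was lost without E1-KO replicate 1 or WT replicate 1 (0.0611 and 0.0642), Hoxc10 in E1-KO without E1-KO replicate 2 or WT replicate 1 (0.0656 and 0.0585) and in E3-KO without WT replicate 2 (0.0691), Msx2 in E1-KO without E1-KO replicate 1 or either WT sample (0.0568 to 0.0927) and in E2-KO without E2-KO replicate 2 or either WT sample (0.0583 to 0.0724) and Slit2 in E3-KO without WT replicate 1 (0.0605). Pax6 in E2-KO was lost without either E1-KO sample, E2-KO replicate 1 or either WT sample (0.0598 to 0.236), and Cdkn2a in E1-KO without E1-KO replicate 2 or either WT sample (0.0606 to 0.117) and in E2-KO without E2-KO replicate 2 or WT replicate 1 (0.0556 and 0.0787).

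**Figure D5:**
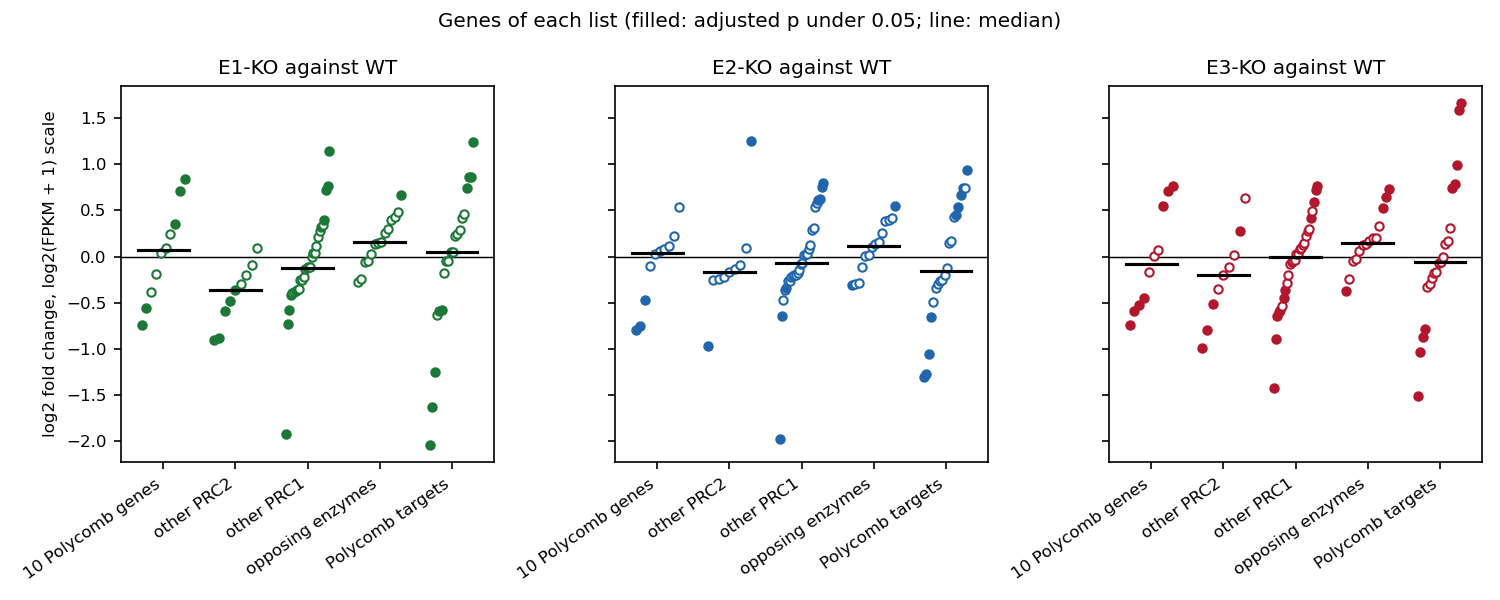
Log2 fold change against WT (vertical axis, log2(FPKM + 1) scale) of every tested gene of 5 lists, in E1-KO, E2-KO and E3-KO, filled at an adjusted p under 0.05 and with a line at each list's median. The medians of the other PRC2 genes lie at -0.36, -0.17 and -0.20. Those of the list labelled opposing enzymes, which also holds other subunits of their complexes, lie at 0.15, 0.12 and 0.15.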

How the data were processed

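Total RNA of the 8 samples was sequenced as paired reads of 150 bases, per the labels' protocols. The submitters' processing notes name Trimmomatic 0.36, TopHat2 2.0.12, Cufflinks 2.2.1 and the build mm9. The authors deposited 1 value per gene and sample, taken here as FPKM from the values and from Cufflinks, since no header states the unit, and any normalization between samples, the annotation and the use of strand are not given in the sources used here. Symbols and GRCm38 positions came from GENCODE M21 by identifier (17262 of 17812 matched), and no coordinate was converted. Of 660 identifiers with several rows, 571 were kept by the row that stood at the gene's own place in the order of chromosome, strand and position, and 89 were left out. For Kdm2b this kept 1 of 3 rows.

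Genes whose mean reached 1 FPKM were tested by limma-trend (limma 3.58.1, R 4.3.3) on log2(FPKM + 1), which understates the change of weakly expressed genes. All 8 samples entered 1 fit with the group as its only term and 4 residual degrees of freedom. P-values are two-sided, and Benjamini-Hochberg adjustment ran over all 11268 genes. They set a change against the spread between the 2 replicates of a group, pooled over the 4 groups and moderated across genes (9.03 degrees of freedom). A group outside a comparison therefore also bears on its p-value. The members, lists and tests were chosen with earlier results of these data known. Named beside the 10 members were, per list and knockout, up to 3 rising and 3 falling called genes with the largest change whose samples did not overlap WT, and the 2 genes most correlated with each called member. 1 gene that this rule names is not reported here. The fit was also run on simulated data, independent normal values drawn from each gene's mean and spread. Those data hold no differences of clone or scaling, so that run cannot say whether the calls here are right. Figures used matplotlib 3.10.9 in Python 3.11.15.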

Additional observations from a re-analysis of the deposited data

Results flagged for a closer look

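Several members had effects that differed between knockouts in a direct test (limma-trend, adjusted p under 0.05). The change of Ezh2 was lower in E3-KO than in E1-KO (log2 difference -1.0045), and with the median of chromosome 6 taken off, -0.42 was left. Cbx7 was lower in E3-KO than in E1-KO (-0.76) and than in E2-KO (-0.55). Kdm2b was higher in E3-KO than in E1-KO (0.67) and than in E2-KO (0.49). Jarid2 was higher in E3-KO than in E2-KO (0.43).

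A row with the identifier of Kdm2b that was left out, because it stood among genes of the opposite strand, had 1.76 and 2.37 FPKM in WT, but 14.2 FPKM in E3-KO replicate 1 and 7.59 FPKM in E2-KO replicate 2. The other samples of these groups were at 0.724 and 0 FPKM, so the value did not repeat within either group.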

How the results depend on the processing

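Of 603 values of the 10 members under settings other than leaving out a sample, 570 kept their direction and side of the threshold, 19 were no longer called, 2 became called, 11 changed sign and 1 moved. No member called in a comparison with WT or between knockouts changed sign. With the 50 genes of highest level left out of the scaling, Rnf2 between E3-KO and E1-KO went to 0.0477, Ring1 between E3-KO and E2-KO to 0.0154 and Cbx7 in E2-KO to -0.0253. Quantile normalization gave 0.0567, 0.00747 and -0.0208 for these, and -0.0719 for Ezh2 in E2-KO. Median-ratio scaling gave 0.0724 for Rnf2 and 0.00659 for Ezh2 in E3-KO. Less the median of chromosome 6, Ezh2 stood at 0.45 in E3-KO against WT and 0.36 against E2-KO.

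The count of members called moved to 3 of 10 in E1-KO with all genes above 0 tested, and to 5 of 10 in E2-KO with median-ratio scaling. Between E3-KO and E2-KO it was 0 with the 4 samples fitted alone, and 1 each without a trend and with all genes above 0. Over all genes, the 94 calls between E2-KO and E1-KO became 31 with the replicate block, 1 with the pair alone, 1 with all genes above 0 and 58 with the filter raised to a mean of 5 FPKM, and the 1753 between E3-KO and E2-KO became 671 with the pair alone. Same-numbered samples did not deviate together (correlations of deviations -0.0417 to 0.0895 over 6 pairs of groups), and with the number as a replicate block the members called were 4 (E1-KO), 3 (E2-KO) and 7 (E3-KO). The share of higher among called genes also rested on scaling. It was 31.1% in E3-KO against WT, 48.1% with quantile normalization and 50.3% with median-ratio scaling, which took E1-KO from 39.6% to 49.5%, E2-KO from 39.2% to 51.9%, E3-KO against E1-KO from 36.4% to 52.5% and E3-KO against E2-KO from 35.2% to 51.1%.

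Leaving out 1 sample assumes that a lone sample varies like the other groups. It gave 1 to 5, 2 to 4 and 4 to 7 members called against WT in E1-KO, E2-KO and E3-KO, and 0 to 1 (E2-KO against E1-KO), 1 to 3 (E3-KO against E1-KO) and 0 to 3 (E3-KO against E2-KO) between knockouts. Over all genes it gave 2041 to 4672, 1871 to 4453 and 2829 to 5339 calls against WT, and 2 to 261, 1307 to 3274 and 975 to 1550 between knockouts. Signs changed for values that were not called: against WT for Ezh2 in E2-KO (-0.127 to 0.243) and E3-KO (-0.508 to 0.172), Jarid2 for E2-KO (-0.0602 to 0.291), Ring1 in E2-KO (-0.137 to 0.311) and E3-KO (-0.235 to 0.241), Cbx7 in E2-KO (-0.102 to 0.158) and Kdm2b in E1-KO (-0.074 to 0.15). Between E2-KO and E1-KO this held for Eed (-0.521 to 0.178), Suz12 (-0.146 to 0.0391) and Mtf2 (-0.0947 to 0.28), between E3-KO and E1-KO for Eed (-0.0202 to 0.135) and Rnf2 (-0.0573 to 0.00293), and between E3-KO and E2-KO for Ezh2 (-0.566 to 0.114), Eed (-0.121 to 0.578) and Ring1 (-0.322 to 0.154). The causes of these moves were not tested. Depth is unknown in absolute terms, so counting error could not be given, and it weighs most on Ring1, the lowest member.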
